A study of Rattus norvegicus with 10 samples.

Results

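The genes described here handle organic osmolytes, the small neutral solutes that cells take up or make when their surroundings become concentrated. The set was built around Slc5a3, a gene whose RNA was higher after FoxE1 silencing, to see whether it rose alone, and the other genes were added for their known role in inositol, taurine, betaine and sorbitol handling. It holds 8 genes, Slc5a3, Slc6a6, Slc6a12, Nfat5, Akr1b1, Isyna1, Impa1 and Slc2a13, of 15154 named genes on the array. Every non-control probe whose transcript accession belongs to one of them was taken, which gave 9 probes of 30367. Nfat5 had both a bright and a dim probe and each of the other genes had 1. Since Slc5a3 was chosen for its ratios on these arrays, its values are given as a description. The calls and adjusted p-values it received, in whichever fit, support nothing.

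PCCl3 cells are rat thyroid follicular cells kept as an established line. In the first condition (siFoxE1) the cells were transfected with a pool of siRNAs against FoxE1, a thyroid transcription factor. In the next (siScramble) they received a non-targeting siRNA pool, and the last condition was wild-type cells (wt), kept as the basal state. Both siRNAs were used at 25 nM, and RNA was taken at 48 h from 4 cultures per condition. It was hybridized to 10 Agilent rat arrays with 2 dyes, 5 that set siFoxE1 against siScramble and 5 that set it against wt. On 4 arrays of each comparison 1 culture per condition was hybridized, with siFoxE1 RNA in Cy5 (the red dye), and 1 further array held pooled RNA of the same cultures with the dyes exchanged. The pools therefore add no further culture, and n is 4. Both comparisons use the same 4 siFoxE1 extracts, so they are not independent of each other. siScramble and wt RNA were never on one array.

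An osmolyte transporter brings its solute into the cell together with sodium, and Slc5a3 does so for myo-inositol, Slc6a6 for taurine and Slc6a12 for betaine and GABA. Myo-inositol can also be made inside the cell, where Isyna1 turns glucose 6-phosphate into inositol phosphate and Impa1 removes the phosphate, while Akr1b1 (aldose reductase) makes sorbitol from glucose. Nfat5 is the transcription factor that raises several of these genes when the tonicity of the medium goes up. Myo-inositol is also the base of the phosphoinositides, which carry only a part of the signalling of TSH receptors in thyroid cells.

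The start regions of the 2 genes with the largest ratios of opposite sign are shown because the study searched promoters for a FoxE1 core, written ACAAA in its methods and AAACA in its results, near the NF1 motif TTGG. They are the RefSeq windows of build GRCr8, from 250 bases before to 50 bases after the annotated start, read 5′ to 3′ on the strand of the gene. Capitals mark matches to ACAAA or AAACA on either strand. Slc5a3 lies on the plus strand at chr11:44799537-44799836, inside the annotated span of Mrps6, and Isyna1 on the minus strand at chr16:18875906-18876205.
Slc5a3: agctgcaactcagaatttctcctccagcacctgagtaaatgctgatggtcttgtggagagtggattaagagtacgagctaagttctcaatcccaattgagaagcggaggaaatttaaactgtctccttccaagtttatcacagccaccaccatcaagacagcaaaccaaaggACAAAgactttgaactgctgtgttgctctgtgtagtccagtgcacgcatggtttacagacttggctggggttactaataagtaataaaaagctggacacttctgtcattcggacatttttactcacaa
Isyna1: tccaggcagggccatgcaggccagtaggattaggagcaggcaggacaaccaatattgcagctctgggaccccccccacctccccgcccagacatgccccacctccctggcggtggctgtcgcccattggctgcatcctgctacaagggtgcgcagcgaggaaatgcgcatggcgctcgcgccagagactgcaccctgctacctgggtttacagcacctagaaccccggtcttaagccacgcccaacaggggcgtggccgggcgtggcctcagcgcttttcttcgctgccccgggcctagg

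The Slc5a3 window held ACAAA 1 time, on the gene's own strand, from base -78 to base -74, and AAACA nowhere. The Isyna1 window held neither on either strand. Of all 33469 such rat windows, 48.1% held ACAAA and 51.9% held AAACA on one strand or the other, and the 2 cores may overlap each other. Windows were at hand for 5 of the 8 genes, and AAACA was found in that of Slc6a12 alone. The arrangement the study used, TTGG followed after 5 to 30 bases by the core on the same strand, was in none of the 5 windows with ACAAA and in 6.63% of all. With AAACA it was likewise in none of the 5 and in 7.38% of all. The study searched a far longer span on both sides of each start, and the rest of that span was not examined here. TTGG by itself was in all 5 windows and in 90.6% of all windows. TGGAAA, the core of the sites that Nfat5 binds, may overlap TTGG and was found 1 time in the Slc6a6 window, against 22.7% of all windows. These are matches of letters, not binding sites.

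Each array had 58717 spots, of which 60.6 to 68.2% were well above background in Cy3 and 56.8 to 60.3% in Cy5. None was saturated. Few arrays, the spread between cultures and, for dim probes, the signal over background all limit the precision. Foxe1 RNA was lower in siFoxE1 cells on all 10 arrays, with log2 ratios of -1.21 to -0.34. It fell by 0.80 on the log2 scale against siScramble (limma, adjusted p = 0.0228) and by 0.86 against wt (adjusted p = 0.0333). Without culture 1 the adjusted p was 0.0541 against siScramble and 0.236 against wt, and without culture 4 it was 0.234 against wt, with Foxe1 still lower. Of the 9 markers of thyroid follicular cells, 8 were well above background on all 10 arrays in the siScramble or wt channel, all but Slc26a4. Of the markers of other cells, 1 of 2 of C cells, 3 of 4 of fibroblasts, 1 of 3 of endothelial cells and 2 of 3 of leukocytes were. Those were Calcb, Col1a1, Col1a2, Pdgfra, Cdh5, Cd68 and Csf1r, all dim, at mean log2 levels of 6.45 (Calcb) to 7.74 (Pdgfra). The 8 follicular markers lay at 9.85 (Duox2) to 16.30 (Tg). Dcn, Pecam1 and Ptprc were well above background on 0 of 10 arrays, Calca on 1 and Kdr on 4, and the level of Dcn was 5.95. Cd68, a lysosomal protein of macrophages, fell by 0.66 against siScramble (adjusted p = 0.0147), with a ratio of -1.34 on the pooled array but of only -0.01 to 0.10 on the 4 individual ones, and its fitted value over wt was -0.09 (adjusted p = 0.537). The part of other cells in the results below was not tested. The array of culture 3 against siScramble and the siScramble pool lay on another slide than the remaining 8 arrays.

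Of the transporters, Slc5a3 had the highest ratios. Its log2 ratio of siFoxE1 over siScramble was 0.58, 0.97, 0.74 and 0.87 in cultures 1 to 4 and 0.64 on the pooled array. Over wt it was 0.13, 0.85, 1.09 and 0.87 in cultures 1 to 4 and 0.47 on the pooled array. All 10 ratios were above 0, and culture 1 against wt stood well below the other cultures. The mean of the 4 cultures was 0.79 ± 0.17 over siScramble and 0.73 ± 0.42 over wt (SD, n = 4). The fit, which weighs the mean of the cultures and the pool equally because of its dye term, gave 0.72 with an SE of 0.09 over siScramble, or 1.64-fold, and 0.60 with an SE of 0.17 over wt, or 1.52-fold. Of 17772 probes tested in both comparisons 4.41% also had all 10 ratios above 0.

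**Figure D1:**
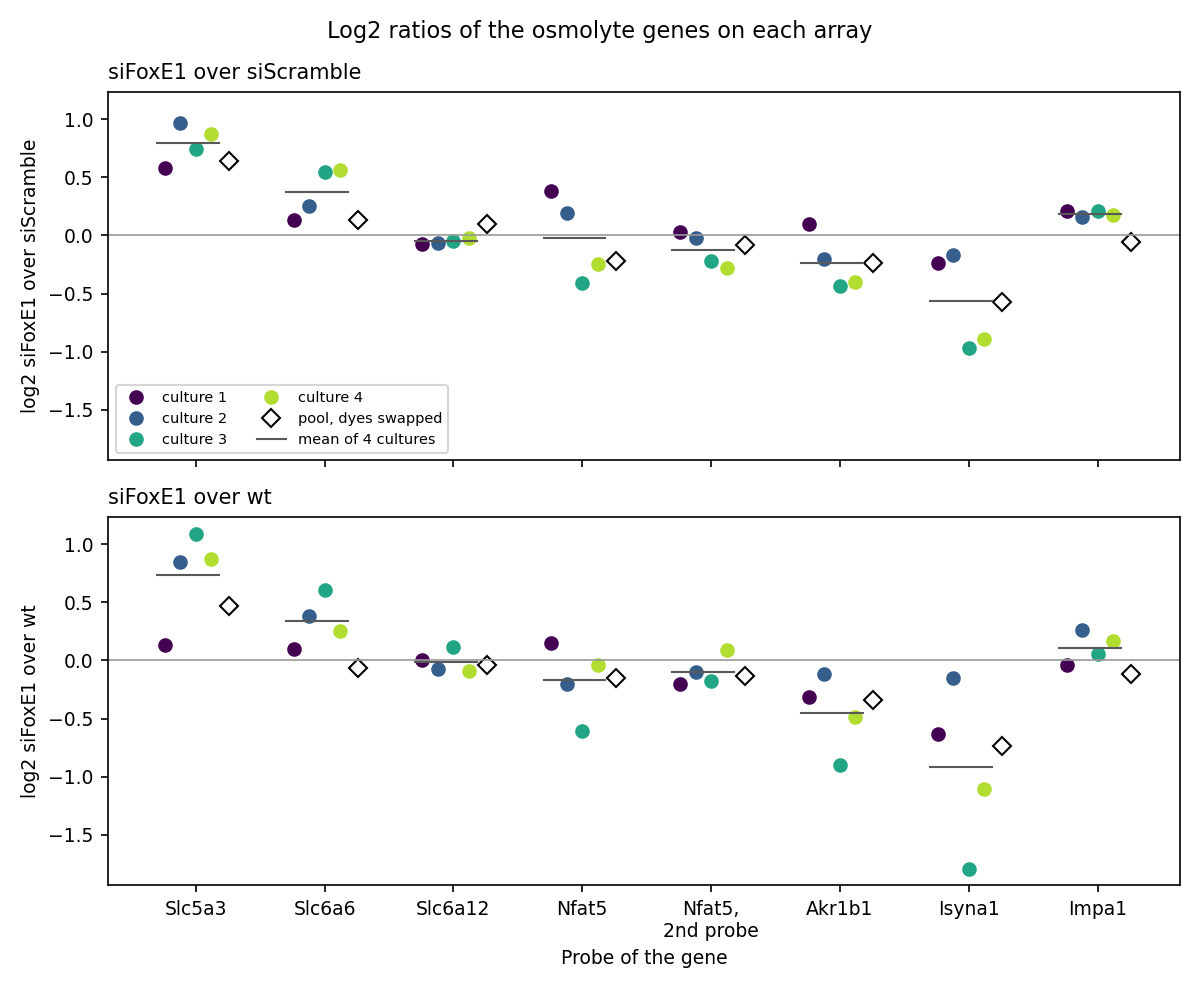
Log2 ratio (vertical axis) of siFoxE1 over siScramble (top) and over wt (bottom) for each probe of the set that was tested. Filled points are cultures 1 to 4, the open diamond is the pooled array with exchanged dyes and the short line is the mean of the 4 cultures. Slc5a3 lies above 0 on all 10 arrays and Isyna1 below 0 on all 10.

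The Slc5a3 level itself differed more between cultures than between conditions. Its normalized log2 intensity in siFoxE1 cells was 10.60, 12.29, 11.38 and 10.86 in cultures 1 to 4. In siScramble cells it was 10.04, 11.30, 10.62 and 10.05 in cultures 1 to 4. In wt cells it was 10.45, 11.47, 10.31 and 9.92 in cultures 1 to 4. Culture 2 was the highest in each condition, and the ranges of the 3 conditions overlapped, while within every number the siFoxE1 culture was above both others. The means were 11.28 ± 0.75 in siFoxE1, 10.50 ± 0.60 in siScramble and 10.54 ± 0.66 in wt (SD, n = 4), and siScramble and wt, neighbours in this order, differed by less than their spread. For this and every other gene, the culture levels of siFoxE1 were read in Cy5 and those of siScramble and wt in Cy3. Levels of siFoxE1 therefore differ from the others by dye as well as by condition. The siFoxE1 extracts were measured on 2 arrays each, and both readings of Slc5a3 differed by at most 0.13. The probe was printed as 2 spots, which differed by at most 0.19 in log2 ratio on any array.

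Slc6a6, the taurine transporter, pointed the same way with smaller ratios. Its log2 ratio was 0.13, 0.25, 0.55 and 0.56 over siScramble in cultures 1 to 4 and 0.13 on the pool. Over wt it was 0.09, 0.39, 0.60 and 0.26 in cultures 1 to 4 and -0.06 on the pool. The ratio was thus above 0 on 9 of 10 arrays, and both pools were lower than the mean of their cultures. The fit gave 0.25 (SE 0.10, adjusted p = 0.330) over siScramble and 0.14 (SE 0.10, adjusted p = 0.510) over wt, so neither passed 0.05. The ratio of Slc5a3 exceeded that of Slc6a6 on all 10 arrays, by 0.42 ± 0.22 over siScramble and by 0.40 ± 0.25 over wt (SD, n = 4 cultures). Because Slc5a3 had been chosen for its high ratios on these arrays, the gap is only a description.

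The level of Slc6a6 followed the cultures in a like way. It averaged 8.63 ± 0.42 in siFoxE1, 8.27 ± 0.46 in siScramble and 8.28 ± 0.42 in wt cells (SD, n = 4), with culture 2 highest and culture 4 lowest in each condition. The ranges of the conditions overlapped. The siFoxE1 levels were Cy5 readings and the others Cy3 readings, and the fitted dye term of the Slc6a6 ratio was 0.12 over siScramble and 0.20 over wt. The level difference therefore mixes dye and condition. Slc6a12, the betaine transporter, stayed near 0, with log2 ratios of -0.07 to 0.10 over siScramble and of -0.09 to 0.12 over wt. The fit gave 0.02 (SE 0.06, adjusted p = 0.927) over siScramble and -0.02 (SE 0.07, adjusted p = 0.889) over wt. Its probe was dim, at 52 to 217 in Cy3 and 89 to 233 in Cy5 before correction, and 2 readings of one siFoxE1 extract differed by up to 0.69 in level. Slc2a13, the proton-coupled inositol transporter, was well above background in 1 of 10 siFoxE1 readings and in none of the siScramble or wt readings, so it was not tested and no fold is given.

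Of the enzymes of inositol synthesis, Isyna1 had ratios below 0 on every array and Impa1 had fitted ratios near 0. Isyna1, the enzyme that makes inositol phosphate, had log2 ratios of -0.24, -0.17, -0.97 and -0.89 over siScramble in cultures 1 to 4 and -0.57 on the pool. Over wt they were -0.63, -0.15, -1.79 and -1.10 in cultures 1 to 4 and -0.74 on the pool. All 10 ratios were below 0, which 5.35% of 17772 probes also showed, and cultures 3 and 4 were far lower than cultures 1 and 2 in both comparisons. The mean was -0.57 ± 0.42 over siScramble and -0.92 ± 0.70 over wt (SD, n = 4). This spread between cultures was larger than that of 98.0% of probes tested over siScramble and of 99.3% over wt. The split of cultures 3 and 4 from 1 and 2 also ran across the array. Over 17785 probes, deviations from the mean of the 4 cultures were correlated between both comparisons. Between those pairs of cultures r ran from -0.65 to -0.12. Both comparisons share the siFoxE1 extracts, so a split seen in both is not a repeat.

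Isyna1 did not pass the test in either comparison. The fit gave -0.57 (SE 0.16, adjusted p = 0.236) over siScramble and -0.83 (SE 0.27, adjusted p = 0.244) over wt, although only 0.751% of the probes tested over siScramble and 0.637% of those over wt had larger fitted ratios of either sign. In a single fit of all 10 arrays with the replicate number as a block, the ratio over wt was -0.86 (adjusted p = 0.0284). In that fit 8.07% of all probes passed, against 0.0486% in the fit of the 5 arrays alone. Over siScramble the blocked fit gave -0.54 (adjusted p = 0.288).

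The level of Isyna1, like that of Slc5a3, differed widely between cultures. In siFoxE1 cells the log2 intensity was 13.36, 11.90, 11.99 and 12.10 in cultures 1 to 4. In siScramble cells it was 13.57, 12.07, 12.88 and 12.97 in cultures 1 to 4. In wt cells it was 14.02, 12.06, 13.85 and 13.23 in cultures 1 to 4. Culture 2 was the lowest and culture 1 the highest in each condition, and in siFoxE1 cells cultures 3 and 4 were close to culture 2. The means were 12.34 ± 0.69 in siFoxE1, 12.87 ± 0.62 in siScramble and 13.29 ± 0.88 in wt (SD, n = 4), with overlapping ranges. Both readings of a siFoxE1 extract differed by at most 0.14.

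**Figure D2:**
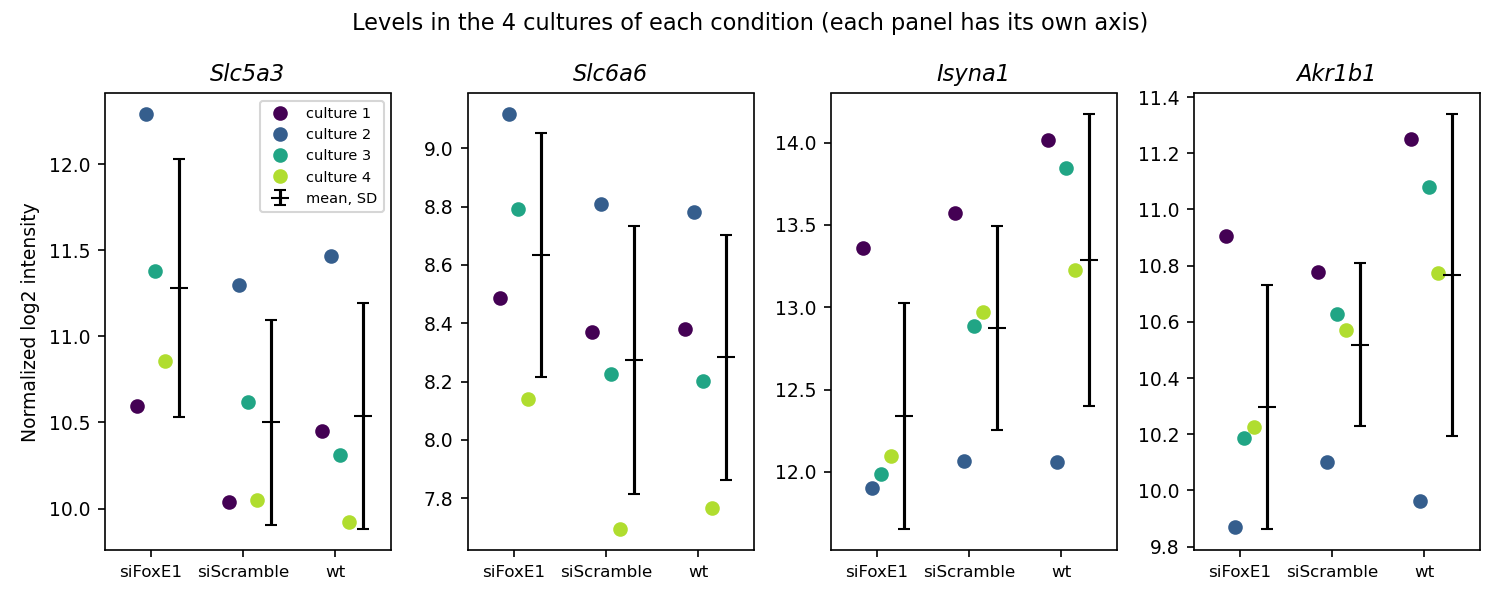
Normalized log2 intensity (vertical axis, set for each panel) of Slc5a3, Slc6a6, Isyna1 and Akr1b1 in the 4 cultures of siFoxE1, siScramble and wt, with mean and SD. Within each number siFoxE1 is highest for Slc5a3, and culture 2 is lowest for Isyna1 and Akr1b1 in every condition. The siFoxE1 cultures were read in Cy5 and the others in Cy3.

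Impa1 frees inositol from its phosphate. Its ratios over siScramble were 0.21, 0.16, 0.21 and 0.18 in cultures 1 to 4 but -0.05 on the pool. Over wt they were -0.04, 0.26, 0.05 and 0.17 in cultures 1 to 4 and -0.12 on the pool. Over siScramble the 4 cultures lay so close together (SD 0.03) that only 0.844% of probes had a smaller spread, and the pool alone was of the other sign. The fit gave 0.07 (SE 0.06, adjusted p = 0.719) over siScramble and -0.0028 (SE 0.08, adjusted p = 0.991) over wt. Without the pool and the dye term the ratio over siScramble was 0.19, with an adjusted p = 0.101.

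Akr1b1, which makes sorbitol, was lower on 9 of 10 arrays. Its ratios were 0.09, -0.21, -0.44 and -0.40 over siScramble in cultures 1 to 4 and -0.24 on the pool. Over wt they were -0.31, -0.12, -0.90 and -0.49 in cultures 1 to 4 and -0.34 on the pool. As with Isyna1, cultures 3 and 4 had the lowest ratios in both comparisons, a split of the cultures that also ran across the array. The fit gave -0.24 (SE 0.11, adjusted p = 0.397) over siScramble and -0.40 (SE 0.14, adjusted p = 0.251) over wt. Its level was 10.30 ± 0.44 in siFoxE1, 10.52 ± 0.29 in siScramble and 10.77 ± 0.57 in wt (SD, n = 4), lowest in culture 2 and highest in culture 1 in each condition.

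Nfat5, the regulator of the tonicity response, had no common direction. The bright probe had ratios of 0.38, 0.20, -0.41 and -0.24 over siScramble in cultures 1 to 4 and -0.22 on the pool. Over wt they were 0.15, -0.20, -0.60 and -0.04 in cultures 1 to 4 and -0.15 on the pool. Over siScramble cultures 1 and 2 lay above 0 and cultures 3 and 4 below. The fit gave -0.12 (SE 0.14, adjusted p = 0.788) and -0.16 (SE 0.14, adjusted p = 0.553), over siScramble and over wt. On the slide of cultures 1, 2 and 4 alone, the ratio over siScramble was 0.11, of the opposite sign. The dim probe gave -0.10 over siScramble (adjusted p = 0.651) and -0.11 over wt (adjusted p = 0.483), and was well above background in only 3 of 10 siFoxE1 readings. It met the filter through the siScramble channel (3 of 5 arrays against 2 of 5 in siFoxE1) and the wt channel (4 of 5 against 1 of 5) alone, a choice that favours a ratio below 0, so nothing is read from its sign or its test.

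Counted over the set, 1 of the 7 genes tested, Slc5a3, passed an adjusted p of 0.05 over siScramble, where 0.121% of 18120 probes did (0.0386% as higher and 0.0828% as lower). Over wt none of the 7 passed, where 0.0486% of 18524 probes did (0.00540% as higher and 0.0432% as lower). At an unadjusted p under 0.05 there were 2 higher genes and 1 lower over siScramble, beside 6.41% of probes higher and 6.71% lower. Over wt there were 1 higher gene and 2 lower at that level, beside 8.02% of probes higher and 9.14% lower. Slc5a3 had been chosen for this contrast, and nothing is read from its call. The median ratio of the 7 genes was 0.02 over siScramble and -0.02 over wt, beside a median of -0.01 over all probes tested in both comparisons. No other gene of the set passed in the same direction as Slc5a3, and the gene nearest to it, Slc6a6, was at about the size that 8.87% of probes exceeded over siScramble and 39.1% over wt. The count over siScramble was 0 when culture 1, 2 or 4 was left out and 0 in the blocked fit, where 0.353% of probes passed, while the blocked fit over wt counted 2, Slc5a3 and Isyna1. The same joint fits without the block called 0.535% of probes over siScramble and 8.94% over wt, with Slc5a3 in both and Isyna1 over wt. Without the dye term 2 genes, Slc5a3 and Isyna1, passed in each comparison, where 3.79% of probes passed over siScramble and 4.56% over wt.

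**Figure D3:**
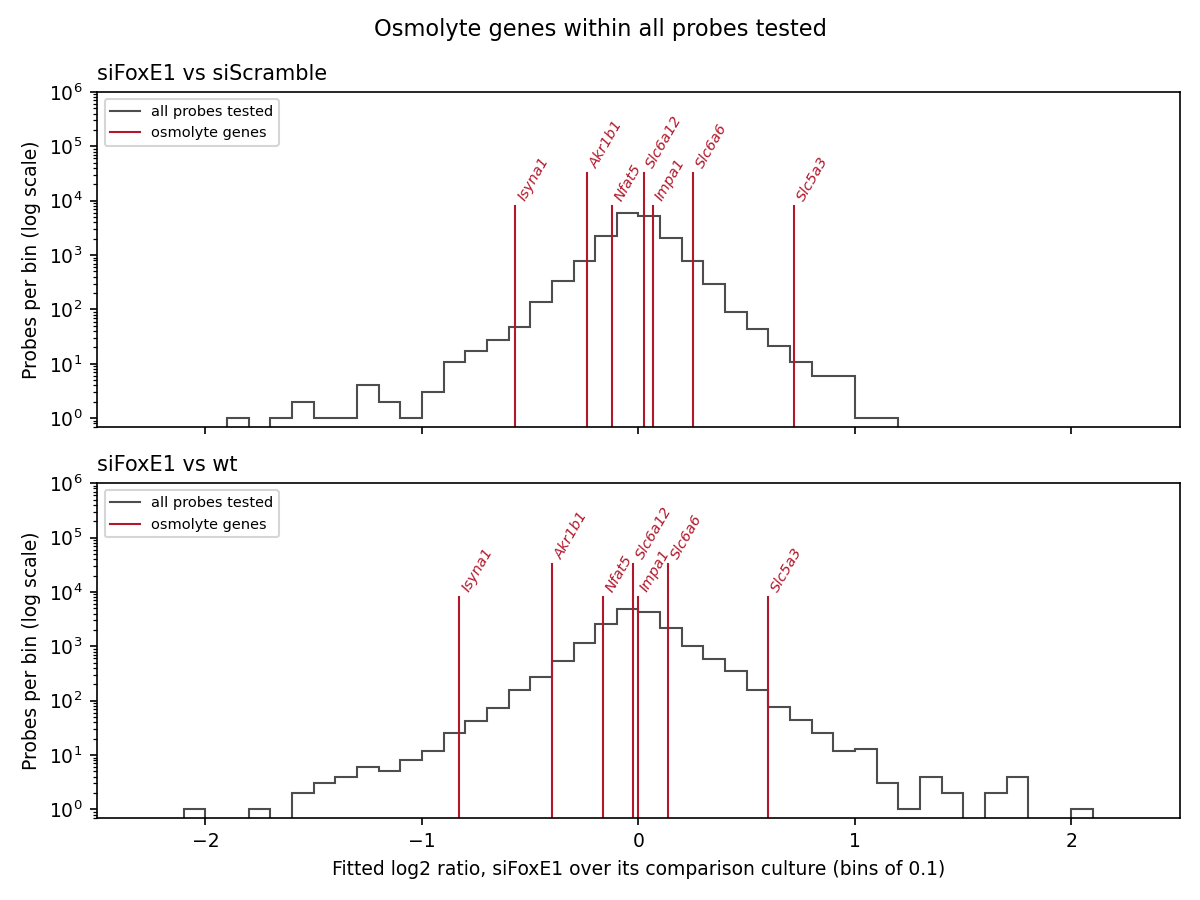
Number of probes (vertical axis, log scale) by fitted log2 ratio in bins of 0.1 (horizontal axis) for siFoxE1 vs siScramble and siFoxE1 vs wt. Red lines mark the 7 osmolyte genes tested. Slc5a3 lies in the right flank and Isyna1 in the left flank, and the others lie nearer to 0.

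By slide, the ratios of the set over siScramble were as follows. On the slide of cultures 1, 2 and 4 the mean ratio of Slc5a3 was 0.81 and that of Isyna1 was -0.43. On the other slide Slc5a3 had 0.74 in culture 3 and 0.64 on the pool, and Isyna1 had -0.97 and -0.57. Both genes thus had 1 sign on both slides. With the slide as a further term in the fit, Slc5a3 was at 0.76 and Isyna1 at -0.24, and no probe of the set passed. The comparison over wt lay on 1 slide.

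siScramble cells were set against wt cells indirectly, as the difference of both comparisons, to see what the transfection with a non-targeting siRNA did to these genes. None of 17802 probes passed an adjusted p of 0.05 in limma, and 3.39% had an unadjusted p under 0.05 (1.99% higher and 1.40% lower). None of the 7 genes reached that unadjusted level. With the replicate number as a block 11 probes passed the adjusted p, none of them of the 7 genes. The difference of Slc5a3 was -0.45, -0.12, 0.35 and -0.01 in numbers 1 to 4 and -0.18 between the pools, and its fitted value was -0.08 (SE 0.16, adjusted p = 0.988). For Isyna1 it was -0.39, 0.02, -0.82 and -0.21 in numbers 1 to 4 and -0.16 between the pools, with a fitted value of -0.31 (SE 0.28, adjusted p = 0.988). Slc5a3 had no common sign, and Isyna1 was lower in siScramble than in wt in 3 of 4 numbers. Slc5a3 had been chosen for its rise over siScramble, and that ratio enters this difference with a minus sign. Such a choice favours a value below 0, so nothing is read from the fitted value of Slc5a3 or its adjusted p. The remaining 5 genes had fitted values between -0.20 for Akr1b1 and 0.01 for Slc6a12.

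Of the other genes of inositol metabolism, 20 of 23 were tested and none passed in either comparison. Their median ratio was -0.04 over siScramble and -0.08 over wt. Itpka, which phosphorylates inositol trisphosphate, had the largest mean ratio, with 0.40 (SE 0.13, adjusted p = 0.288) over siScramble and 0.45 (SE 0.13, adjusted p = 0.234) over wt. Impa2, the second inositol monophosphatase, had 0.21 (adjusted p = 0.537) over siScramble and 0.57 (adjusted p = 0.239) over wt. Cds1, which makes the CDP-diacylglycerol that is joined to inositol, was below 0 on all 10 arrays, with -0.29 over siScramble and -0.30 over wt (adjusted p = 0.222 and 0.239). At an unadjusted p under 0.05 there were 1 higher and 2 lower genes over siScramble, and 3 higher and 4 lower over wt, beside 13.1% of all probes over siScramble and 17.2% over wt.

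Of 16 other genes of taurine, betaine, sorbitol and glycerophosphocholine handling, 11 were tested over siScramble and 12 over wt, and none passed. Chdh, the choline dehydrogenase of betaine synthesis, was above 0 on every array, with low ratios in cultures 1 and 2. They were 0.08, 0.16, 0.86 and 0.90 over siScramble in cultures 1 to 4 and 0.84 on the pool. Over wt they were 0.29, 0.11, 1.46 and 0.86 in cultures 1 to 4 and 0.80 on the pool. Cultures 3 and 4 were the highest in both comparisons, and a split of these cultures from 1 and 2 also ran across the array. The fit gave 0.67 (SE 0.17, adjusted p = 0.218) over siScramble and 0.74 (SE 0.24, adjusted p = 0.243) over wt. Slc6a8, the creatine transporter, was also above 0 on all 10 arrays, with 0.38 (SE 0.08, adjusted p = 0.193) over siScramble and 0.48 (SE 0.11, adjusted p = 0.234) over wt. Slc6a9, a glycine transporter, was below 0 on all 10, with -0.44 (adjusted p = 0.223) and -0.53 (adjusted p = 0.234), over siScramble and over wt. The list had a median ratio of 0.09 over siScramble and 0.14 over wt. At an unadjusted p under 0.05 it had 2 higher genes and 1 lower over siScramble, and 5 higher and 2 lower over wt. Of all probes 6.41% were higher and 6.71% lower over siScramble, and 8.02% higher and 9.14% lower over wt.

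**Figure D4:**
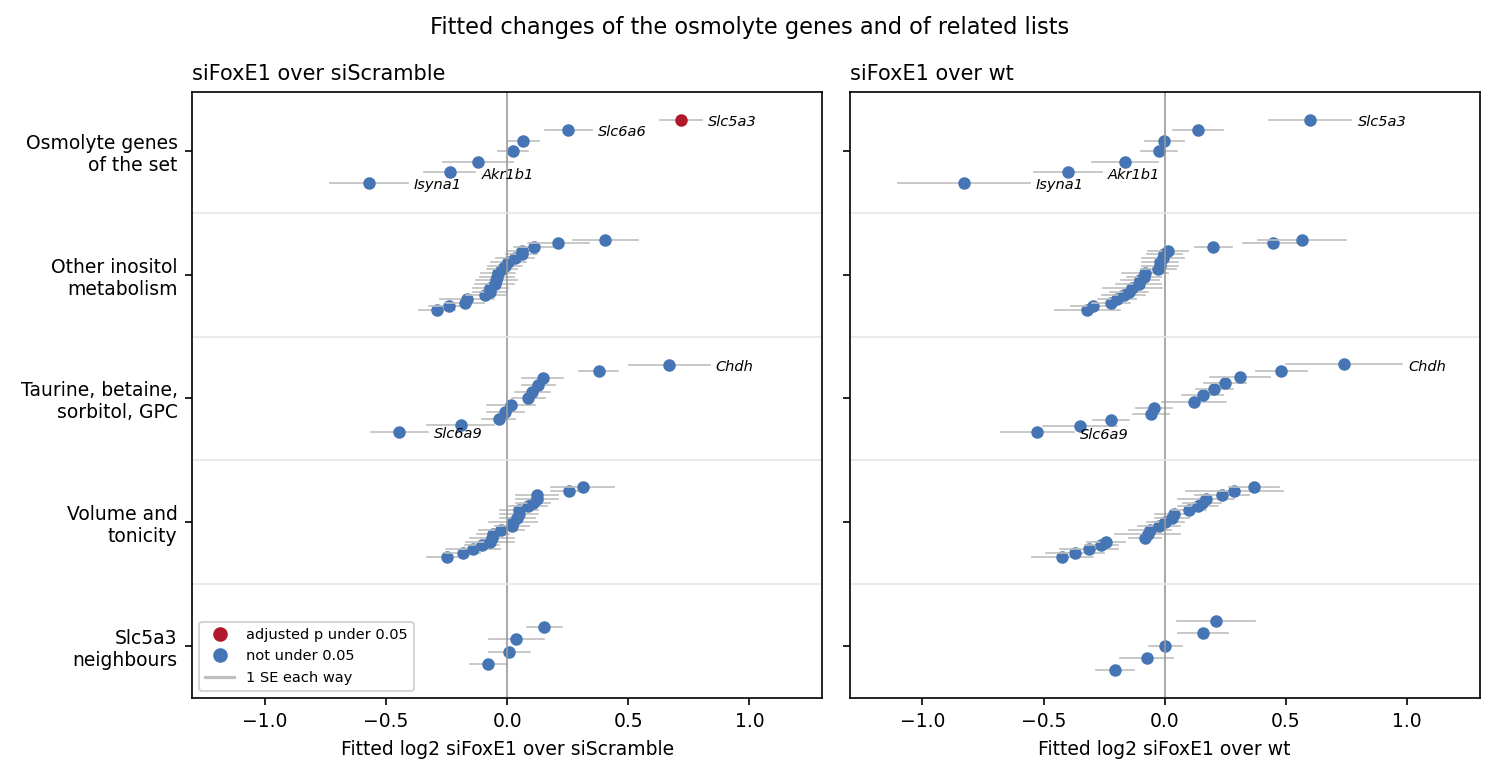
Fitted log2 ratio (horizontal axis) of siFoxE1 over siScramble (left) and over wt (right) for each gene of the set and of 4 related lists, with 1 SE each way. Red marks an adjusted p under 0.05, which 1 point, Slc5a3 over siScramble, reached. Slc5a3 had been chosen for its ratios on these arrays, so nothing is read from that mark.

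Among 22 genes of cell volume control and of the tonicity response, 19 were tested and none passed. The median ratio was 0.02 over siScramble and 0.0022 over wt. At an unadjusted p under 0.05 there were 2 higher genes and 2 lower over siScramble, and 1 higher and 5 lower over wt. The shares of all probes were 6.41% higher and 6.71% lower over siScramble, and 8.02% higher and 9.14% lower over wt. Slc12a7, a potassium chloride cotransporter that lets swollen cells shrink, had 0.26 (SE 0.07, adjusted p = 0.250) over siScramble and 0.37 (SE 0.10, adjusted p = 0.234) over wt. Those are values of its brightest probe. Another Slc12a7 probe did not share this rise, with 0.07 (limma, adjusted p = 0.805) over siScramble and -0.02 (adjusted p = 0.923) over wt. Aqp5, a water channel, had 0.31 (adjusted p = 0.364) and 0.29 (adjusted p = 0.476), over siScramble and over wt. Hspa4l, a chaperone named for its rise under osmotic stress, had -0.14 (adjusted p = 0.646) and -0.42 (adjusted p = 0.239), over siScramble and over wt. Of the 6 genes next to Slc5a3 on its chromosome, 4 were tested over siScramble and 5 over wt, and none passed. At an unadjusted p under 0.05 there was 1, Itsn1 by its brightest probe, lower over wt, where 9.14% of all probes were lower. Mrps6, within whose annotated span Slc5a3 lies, had no named probe here. Atp5po, a subunit of the mitochondrial ATP synthase, had 0.15 over siScramble and 0.16 over wt. Itsn1, a scaffold protein of endocytosis, had -0.08 over siScramble and -0.21 over wt by its brightest probe. Its other probes had -0.12 and -0.11 over siScramble, and 0.06 and -0.12 over wt, so the probes did not share a sign over wt. Kcne2, a potassium channel subunit, had 0.04 over siScramble and 0.21 over wt.

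The pattern of Slc5a3 over the 10 arrays was followed most closely by 5 genes, chosen by Pearson's r of the log2 ratios among 9568 named genes. The arrays share siFoxE1 extracts, so r is a description. The highest was Serpinb9, a serpin that inhibits granzyme B, with r = 0.95, and it was above 0 on all 5 arrays over siScramble, at 0.23 to 0.34. Over wt its ratios ran from -0.05 to 0.42. Neither limma fit of Serpinb9 passed (adjusted p = 0.217 over siScramble and 0.303 over wt). Next were Nup205, a protein of the nuclear pore, with r = 0.92, 1700009N14Rikl with r = 0.92, Rasl2-9 with r = 0.91 and C5h1orf159 with r = 0.88. Their ratios over siScramble were small, from -0.21 to 0.27, so they varied over the arrays along with Slc5a3 but did not share its size. In the set itself r with Slc5a3 was 0.71 for Slc6a6, 0.53 for Impa1 and 0.05 for Slc6a12. It was -0.32 for Isyna1, -0.40 for Akr1b1 and -0.45 for the bright Nfat5 probe.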

How the data were processed

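PCCl3 RNA was measured on 10 arrays with 2 dyes. The authors scanned them and quantified the spots with Feature Extraction 10.7.3.1, and the deposited files give spot intensities (median signal and local background per dye), processed signals and their log10 ratio of red over green. The value columns deposited with the arrays hold the authors' log2 ratios after loess and quantile normalization, with limma 3.2.3 named in the submitters' processing notes. In that table the pooled arrays ran opposite to red over green (r = -0.70 and -0.66) and were taken as already turned.

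Median signals without control and outlier spots were corrected by normexp (offset 50), loess-normalized within arrays, quantile-normalized between them and averaged per probe. Dyes follow the sample labels, under which Foxe1 is lower in siFoxE1, although the study's drawing shows them the other way round. Each comparison was fitted in limma 3.58.1 (R 4.3.3, data.table version 1.17.8) on its 5 arrays with a dye term, which left 3 residual degrees of freedom, with Benjamini-Hochberg adjustment over all probes well above background on at least 3 of 5 arrays in one channel. Scripts were tested on simulated data. Of 30367 probes 17998 were named through their accession in RefSeq GRCr8, which also gave the sequences. List genes were represented by their brightest probe. Named were every member probe, Foxe1, from each list genes that passed plus up to 3 with the largest mean ratio, and the 5 genes most like Slc5a3. The members and lists were chosen with earlier results of these data known. Numbers pair the arrays because one siFoxE1 extract serves both of a number: same-numbered arrays deviated together (r = 0.62, 0.76, 0.76 and 0.41), while r between different numbers ran from -0.65 to 0.51, so that siScramble array 4 was closer to wt array 3 than to its own number. Sequences were read and plots drawn in Python 3.11.15 (matplotlib 3.10.9, numpy 2.4.6, pandas 2.3.3). Alternatives were other background, normalization, filter, dye, slide, block and leave-one-out settings.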

Additional observations from a re-analysis of the deposited data

Results flagged for a closer look

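In 40 groups of 4 cultures checked for one value far from the others (log2 ratios per comparison and log2 levels per condition, each tested probe), 2 stood out, and chance flags about 1 in 20 groups. The Isyna1 level of siFoxE1 culture 1, at 13.36, lay far above the other siFoxE1 cultures, with a gap of 0.866 of the range. The level of the dim Nfat5 probe in wt culture 4, at 6.46, lay above the other wt cultures by 0.954 of a range of only 0.04.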

How the results depend on the processing

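The number of osmolyte genes called over siScramble was 1. That gene was Slc5a3, which had been chosen for its ratios on these arrays, so the number is a description. The number was 0 with Feature Extraction processed signals and 0 with no filter on dim probes. It was 0 in the joint fit with the replicate block, 0 with slide as a further term and 2 with no dye term. It was 0 to 1 when each replicate was left out. Over wt it was 0, but 2 with no dye term, 2 in the joint fit with the replicate block and 2 in the joint fit without it. Between siScramble and wt it was 0 in every setting run, the replicate block included. Slc5a3 over siScramble kept its sign in all 18 alternatives, at 0.69 to 0.81, and Isyna1 its sign at -0.64 to -0.24. Over wt, in 16 alternatives, Slc5a3 was at 0.54 to 0.73 and Isyna1 at -0.96 to -0.68. Foxe1 kept its sign in all of them and lost its call in 5 of 18 over siScramble and 3 of 16 over wt.

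Changes of sign were seen mostly in values near 0. Over siScramble Slc6a12 turned to -0.066 with processed signals, -0.021 with no dye term, -0.051 without the pool, -0.0025 in both joint fits and -0.052 on the slide of cultures 1, 2 and 4. Nfat5 turned to 0.21 with slide as a term and 0.11 on that slide, and Hspa4l to 0.10 and 0.067. Kcne2 turned to -0.0098 in both joint fits and -0.0046 with slide as a term, with -0.0073 to 0.10 without each replicate, and Cd68 to 0.025 without the pool and 0.031 on that slide. Over wt Slc6a12 turned to 0.0031 in both joint fits, and Impa1 to 0.0062 with processed signals, 0.065 with no dye term and 0.11 without the pool, with -0.028 to 0.022 without each replicate. Between siScramble and wt, the values without each replicate were -0.19 to 0.0098 for Slc5a3 and -0.034 to 0.026 for Slc6a12. The dim Nfat5 probe turned to -0.0057 with Aquantile or loess alone, and lay at -0.077 to 0.073 without each replicate. With processed signals the siFoxE1 ratio of that dim probe kept its sign but was larger, at -0.52 over siScramble and -0.48 over wt. The cause was not tested.

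Over siScramble 22 probes of the whole array were called, against 64 in the joint fit with the block, 97 in that without it, 688 with no dye term, 527 without the pool, 5 with slide as a term, 40 on the slide of cultures 1, 2 and 4, 12 to 35 without each replicate and 0 with processed signals. Over wt 9 were called, against 1495 with the block, 1657 without it, 844 with no dye term, 211 without the pool, 0 to 67 without each replicate and 0 with processed signals. Between siScramble and wt 11 passed with the block and 0 in the other alternatives. The r with Slc5a3 of the 5 genes most like it was 0.73 to 0.97 over normalizations and left-out numbers. The alternative on mean spot signals was not run. Dim probes (Slc6a12, Slc2a13, the second Nfat5 probe) limit what can be said of those genes.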
